A study of Mus musculus with 6 samples.

Results

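Ly6a, Ly6d, Ly6e and Psca encode small proteins of the Ly6/uPAR superfamily, which share a compact, cysteine-rich fold and are mostly held on the outer face of the cell by a glycosylphosphatidylinositol (GPI) anchor. Members of the family serve as surface markers of stem, progenitor and immune cells in the mouse, and several respond to interferon. In the mouse prostate, Ly6a (Sca-1), Psca (prostate stem cell antigen) and Ly6d are used as markers of progenitor-enriched epithelium, in particular of luminal cells close to the urethra. The 4 genes were taken by symbol from a table of 632 genes, and all 4 were found with a value in every library.

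RNA came from flow-sorted prostate epithelial cells of 3-month-old C57BL/6 mice, in 3 libraries of mice whose E-cadherin, the adhesion receptor that joins epithelial cells to each other, had been conditionally knocked out, and 3 libraries of control littermates. The sources used here do not give the Cre driver, the full control genotype or the sorting marker. Nor do they say that the libraries of a group are separate animals, so the spread behind the p-values may be technical. The titles of the knockout libraries all carry the mark L7 and those of the control libraries L2, and an effect of whatever this marks cannot be told apart from that of genotype. Values are taken as FPKM, a fragment count corrected for transcript length and library size. Comparisons of level between genes rest on that unit, which is inferred, and on the library kit, which was not settled. Over all listed genes a library held 31468 to 36565 FPKM, and the sequencing depth is unknown. The table is a selection by the authors: of 622 genes with a finite ratio of group means, 3 had a log2 ratio between -0.25 and 0.25. The p-values below therefore describe a selected list. The E-cadherin gene Cdh1 and the epithelial markers Epcam, Krt8 and Krt18 were not analysed here, so neither the knockout nor the sort could be checked on them, whereas the basal keratin gene Krt5 is listed.

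All 4 genes rose in the knockout libraries, although on a scale centred on the median listed gene Ly6e was at a log2 difference of -0.01. Ly6d rose 4.39-fold, Ly6a 3.44-fold, Psca 2.35-fold and Ly6e 1.88-fold, as ratios of group means. No knockout library overlapped a control library for any of the 4. These calls are from limma on log2(FPKM + 1) with Benjamini-Hochberg adjustment over the 632 genes at 0.05. By the same rule 65.3% of the 632 genes were called higher and 7.28% lower, and 66.9% had all knockout libraries above all control libraries, and the 4 of 4 is to be read against these shares. The median fold was 2.89 for the 4 genes, 1.91 over the 622 genes with a finite ratio and 2.27 over the 409 of these called higher. Of those 409 genes, 46 had a fold at least that of Ly6d and 84 at least that of Ly6a. With a single value per gene and library, more cells that express a gene and more RNA per cell cannot be told apart.

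**Figure D1:**
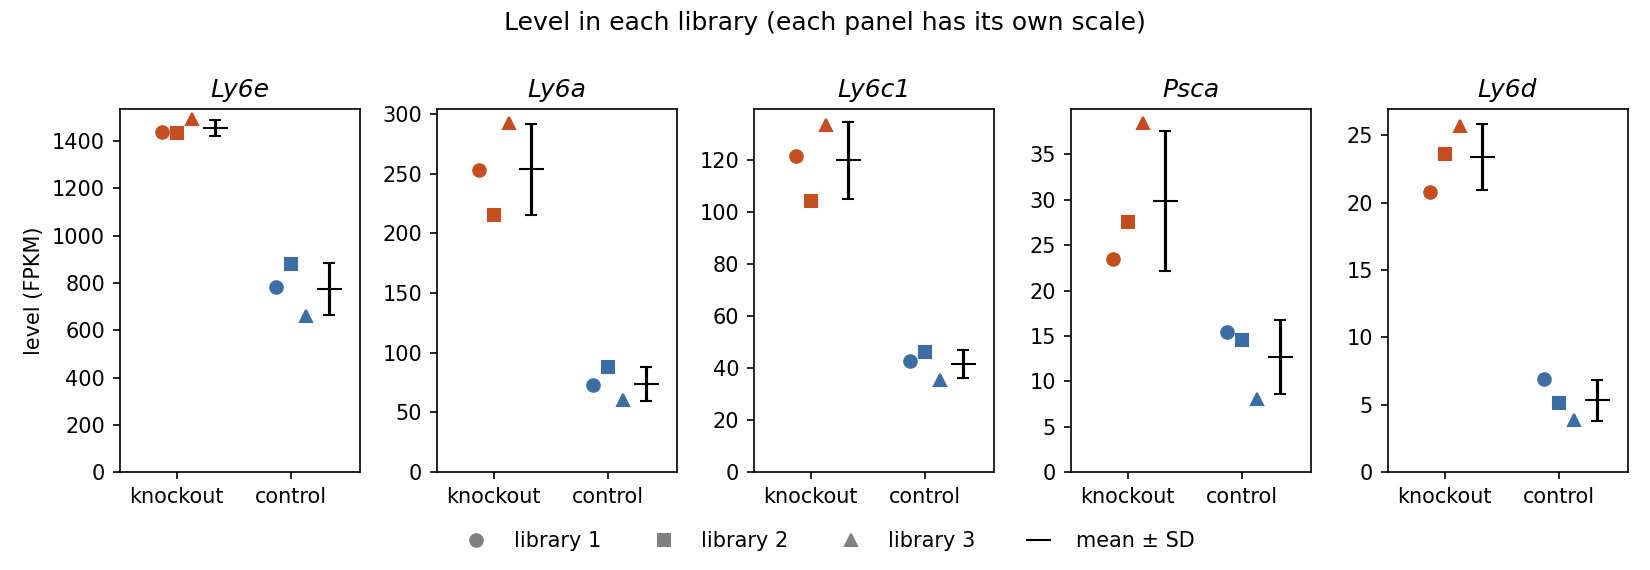
Level in FPKM of Ly6e, Ly6a, Ly6c1, Psca and Ly6d in the 3 knockout and 3 control libraries, with a separate linear axis from 0 in each panel. Symbols mark the library number within a group, which does not pair libraries, and the black mark with bars is the mean ± SD (n = 3). In every panel the lowest knockout library lies above the highest control library.

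Ly6d, known in the mouse as a marker of early B lineage cells, of stratified epithelium and of a castration-resistant luminal progenitor in the prostate, had the largest fold of the 4. It was at 20.8, 23.6 and 25.7 FPKM in the knockout libraries, against 6.93, 5.13 and 3.90 FPKM in the control libraries. The lowest knockout library was 3.00 times the highest control library, the widest gap among the 4 genes. The means were 23.4 ± 2.45 FPKM in knockout and 5.32 ± 1.52 FPKM in control cells (SD, n = 3 each), and the limma log2 difference was 1.97 (SE 0.21, adjusted p = 0.00128). The relative spread was smaller among the knockout libraries, with a coefficient of variation of 10.5%, than among the control libraries, at 28.6%. Ly6d lies on chromosome 15 at 74762056 to 74763620 on the minus strand (GRCm38, ENSMUSG00000034634). By level it was the least abundant of the 4 in both groups, and placed 194th of the 632 genes in knockout and 304th in control cells.

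Ly6a encodes Sca-1, an antigen of mouse haematopoietic stem cells that is also found on activated lymphocytes, endothelium and prostate progenitor-enriched epithelium. It was at 254, 216 and 292 FPKM in the knockout libraries, against 73.3, 88.4 and 60.1 FPKM in the control libraries. Every knockout library was at least 2.44 times every control library. The means were 254 ± 38.3 FPKM in knockout and 73.9 ± 14.2 FPKM in control cells (SD, n = 3 each), with a limma log2 difference of 1.77 (SE 0.19, 95% interval 1.33 to 2.22, adjusted p = 0.00128). It was 23rd among the 632 genes by level in knockout cells, against 76th in control cells. The gene lies at 74994877 to 74998031 on the minus strand of chromosome 15 (GRCm38, ENSMUSG00000075602). Its sequence is not fully its own: of the 50-base stretches in its annotated coding transcripts, 19.0% also occur in transcripts of another gene, among them Ly6c1, Ly6i and Ly6c2, so the assignment of reads to Ly6a is uncertain to that extent. For Ly6d, Ly6e and Psca that share was 0%.

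Psca, a GPI-anchored antigen first described in human prostate and raised in many human prostate cancers, was the least tight of the 4. It was at 23.5, 27.5 and 38.4 FPKM in the knockout libraries, against 15.4, 14.6 and 8.04 FPKM in the control libraries. Knockout library 3 and control library 3 stood apart from the other two of their groups, in opposite directions, and the lowest knockout library was 1.53 times the highest control library. The means were 29.8 ± 7.73 FPKM in knockout and 12.7 ± 4.04 FPKM in control cells (SD, n = 3 each), with coefficients of variation of 25.9% in knockout and 31.9% in control cells. The limma log2 difference was 1.19 (SE 0.29, 95% interval 0.50 to 1.89, adjusted p = 0.0107), and on the scale centred on the median listed gene it was 0.31 and not called (adjusted p = 0.46). With any 1 library left out Psca was still called higher, with log2 differences of 0.92 to 1.35. Psca lies at 74714839 to 74717069 on the plus strand of chromosome 15 (GRCm38, ENSMUSG00000022598).

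Ly6e, known as thymic shared antigen 1 or Sca-2, is an interferon-inducible protein that restricts the entry of coronaviruses into mouse and human cells. It was at 1438, 1436 and 1493 FPKM in the knockout libraries, against 781, 880 and 659 FPKM in the control libraries. The knockout libraries were nearly equal, with a coefficient of variation of 2.21%, while that of the control libraries was 14.3%. The means were 1456 ± 32.2 FPKM in knockout and 773 ± 111 FPKM in control cells (SD, n = 3 each), with a limma log2 difference of 0.92 (SE 0.13, 95% interval 0.60 to 1.24, adjusted p = 0.00230). Among the 632 genes it was 3rd by level in knockout and 6th in control cells, but 318th by fold among the 622 with a finite ratio. Of the 4 it thus had the highest level and the smallest fold. Its fold was close to the median ratio of the listed genes, so that centring on that median leaves a log2 difference of -0.01 (adjusted p = 0.97). The gene lies at 74955051 to 74959905 on the plus strand of chromosome 15 (GRCm38, ENSMUSG00000022587). None of the 4 genes overlaps another annotated gene.

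**Figure D2:**
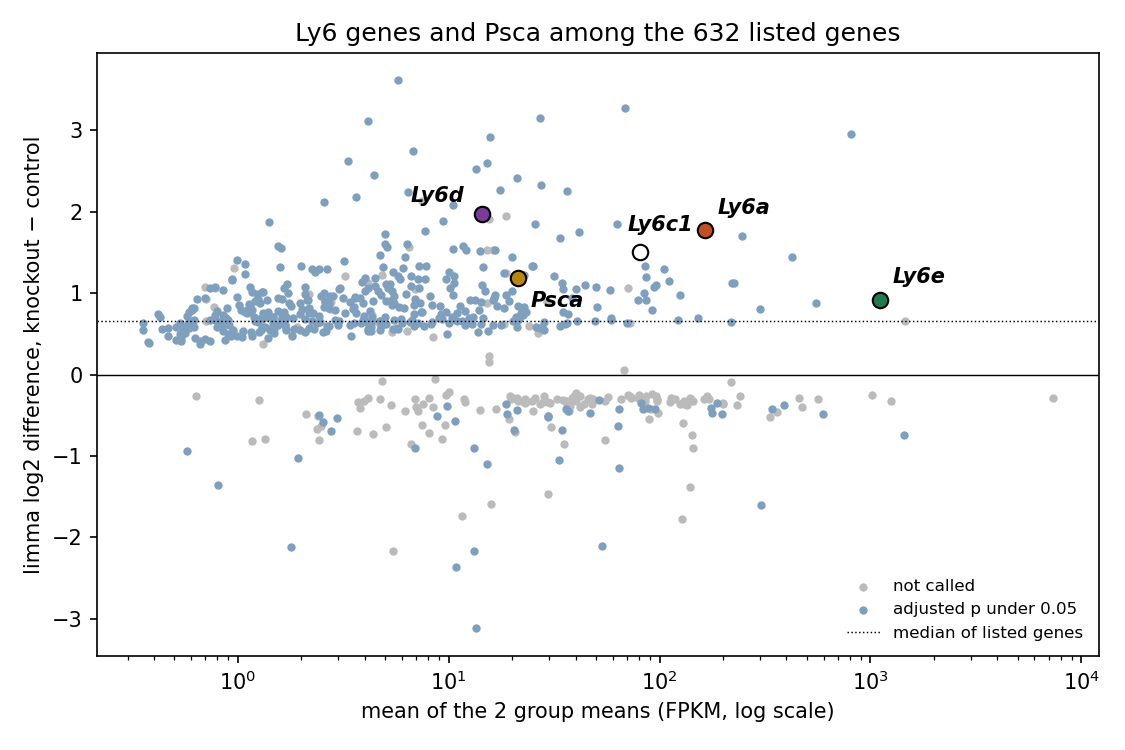
Mean of both group means in FPKM (log axis) against the limma log2 difference, knockout minus control, for the 632 listed genes, with genes past an adjusted p of 0.05 in blue and the others in grey. Ly6d, Ly6a and Ly6c1 lie well above the dotted median of the listed genes, Psca less so, and Ly6e lies to the right at a high level and a log2 difference of 0.92 (-0.01 once values are centred on the median ratio).

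Summed over the 4 genes, the level was 1763 ± 76.7 FPKM in knockout and 865 ± 129 FPKM in control cells (SD, n = 3 each), and most of it was Ly6e. The share of Ly6e in the sum was 82.8%, 84.3% and 80.7% in the knockout libraries, against 89.1%, 89.1% and 90.2% in the control libraries. The share of Ly6a was 14.6%, 12.7% and 15.8% in the knockout libraries, against 8.36%, 8.94% and 8.21% in the control libraries. For both genes the groups did not overlap. Ly6d took 1.32% ± 0.11 of the sum in knockout and 0.61% ± 0.15 in control cells, while Psca took 1.68% ± 0.37 in knockout and 1.44% ± 0.33 in control cells (SD, n = 3 each).

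Whether one gene's difference exceeded another's was compared through the ratio of both genes within each library, which is free of any scaling between libraries. The order of the levels was Ly6e, Ly6a, Psca and Ly6d in every library, and only the ranges of the neighbours Psca and Ly6d overlapped, in the knockout libraries. The ratio of Ly6d to Psca was 0.885, 0.858 and 0.668 in the knockout libraries, against 0.450, 0.351 and 0.485 in the control libraries. The ratio of Ly6a to Ly6e was 0.176, 0.150 and 0.196 in the knockout libraries, against 0.0938, 0.1004 and 0.0911 in the control libraries. On the log2 scale these differences were 0.91 for Ly6d over Psca and 0.86 for Ly6a over Ly6e. The difference was 1.25 for Ly6d over Ly6e and 0.53 for Ly6a over Psca. In these 4 pairs no knockout library overlapped a control library, and each gave p = 0.1 in a two-sided exact permutation test (adjusted p = 0.15 over 6 pairs), where 0.1 is the smallest p that 3 libraries against 3 allow. For Ly6a over Psca the groups barely separated, with the lowest knockout ratio at 7.61 and the highest control ratio at 7.47. In the remaining pairs the libraries overlapped: the difference was 0.38 for Ly6d over Ly6a (exact permutation p = 0.3, adjusted p = 0.36) and 0.34 for Psca over Ly6e (exact permutation p = 0.5, adjusted p = 0.5). No pair passed 0.05, which this design cannot reach.

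**Figure D3:**
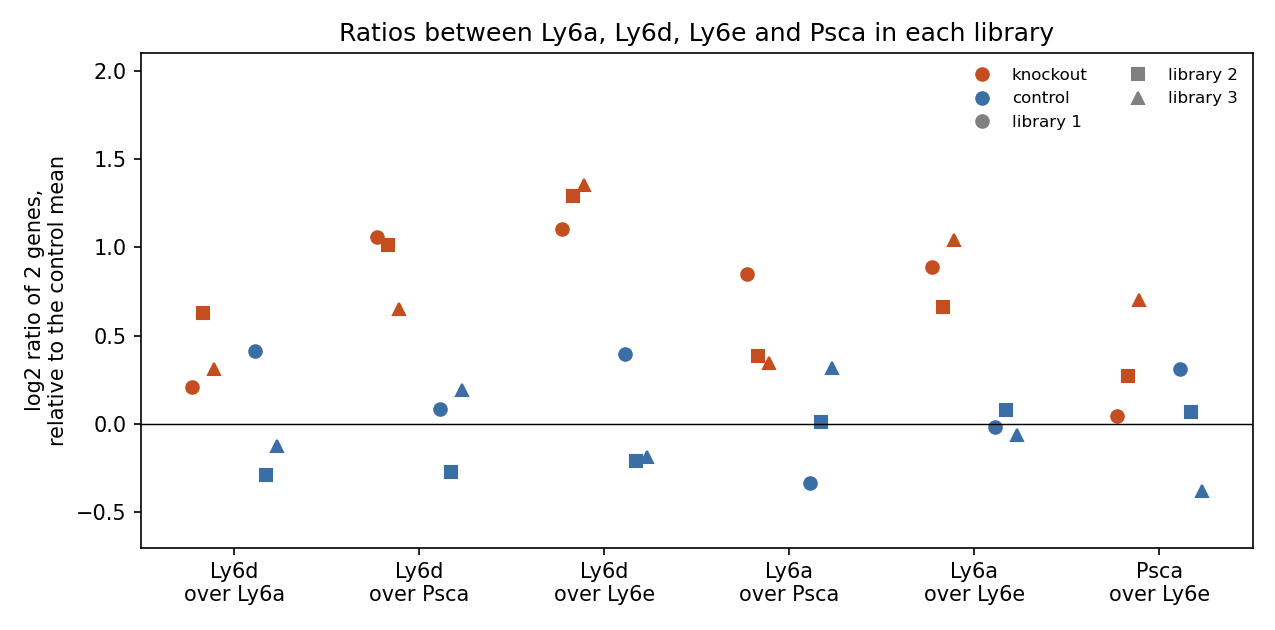
Log2 ratio of one gene to another in each library, relative to the control mean of that ratio, for the 6 pairs of Ly6d, Ly6a, Psca and Ly6e, with knockout libraries to the left of control libraries. The groups separate for Ly6d over Psca, Ly6d over Ly6e, Ly6a over Ly6e and, narrowly, Ly6a over Psca. They overlap for Ly6d over Ly6a and Psca over Ly6e.

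The 4 genes lie within 283.2 kb of chromosome 15, a cluster rich in genes of this family. Of 48 protein-coding genes annotated within 1 Mb of any of them, 6 were listed: the 4 genes, Ly6c1 and Arc. Of 39 genes of the superfamily list with a GENCODE M21 entry, 5 were listed and all 5 were called higher, beside 65.3% of all listed genes. On the median-centred scale 3 of the 5 were called higher and 1, Ly6e, was below 0, at -0.01. The other 34 were not analysed here. Ly6c1, an antigen of mouse monocytes and endothelium, was the one listed family gene beyond the 4. It was at 122, 104 and 134 FPKM in the knockout libraries, against 42.7, 46.2 and 35.5 FPKM in the control libraries. It rose 2.89-fold (limma log2 difference 1.51, SE 0.15, adjusted p = 0.00122). Some of its 50-base stretches also occur in Ly6a transcripts and were counted under Ly6a only. Of its remaining stretches, 24.4% also occur in Ly6c2 or Ly6i transcripts. Arc, an immediate early gene known for its role in synapses, lies just outside the span of the 4 genes and was at 2.899 ± 0.64 FPKM in knockout and 0.315 ± 0.074 FPKM in control cells (SD, n = 3 each), a 9.19-fold rise (adjusted p = 0.00119 by limma).

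For each gene the most similar listed patterns were sought as the smallest root mean square difference of log2(FPKM + 1) over the 6 libraries, after subtracting each gene's own mean. This describes the same libraries and rests largely on the difference between groups. The patterns closest to Ly6a were Cxcl13, a B cell chemokine gene, at 0.136, Egr1, an immediate early transcription factor gene, at 0.145, and the neighbouring Ly6c1 at 0.146, where the median of 599 named genes was 0.605. Closest to Ly6d were Ctse, which encodes the protease cathepsin E, at 0.156, Cxcl13 at 0.171 and Ly6a itself at 0.245. Closest to Psca were Fos, an immediate early gene, at 0.147, Lum, which encodes the matrix proteoglycan lumican, at 0.159, and Cp, the gene of ceruloplasmin, at 0.166. Closest to Ly6e were Ccr2, a monocyte chemokine receptor gene, at 0.0463, Apoe, the gene of apolipoprotein E, at 0.0503, and Hcls1, which encodes a signalling protein of blood cells, at 0.0543. For Ly6e the median over the 599 genes was 0.241, and Ly6a was 383rd in closeness to it. The measure uses log2(FPKM + 1), which shrinks low genes: Ccr2, at 4.05 ± 0.041 FPKM in knockout and 1.59 ± 0.27 FPKM in control cells (SD, n = 3 each), had a fold of 2.55, above the 1.88 of Ly6e.

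Genes that answer to interferon rose alongside. Of 40 on the list 21 were listed and all 21 were called higher (19 to 21 without 1 library), with a median fold of 2.56, against 65.3% called higher and a median fold of 1.91 for all listed genes. On the median-centred scale 4 of the 21 were called higher and 5 were below 0. Isg15, a ubiquitin-like protein gene, was at 14.6 ± 0.76 FPKM in knockout and 5.55 ± 1.12 FPKM in control cells. Irf7, a transcription factor gene of the response, was at 21.03 ± 0.86 FPKM in knockout and 7.95 ± 1.90 FPKM in control cells (SD, n = 3 each). Oasl2 and Zbp1, genes of antiviral sensing, rose to 15.9 ± 0.73 and 3.59 ± 0.12 FPKM in knockout cells, against 4.96 ± 1.76 and 0.885 ± 0.340 FPKM in control cells.

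Progenitor-linked and basal epithelial genes also rose. Of 20 on the luminal progenitor-linked list 7 were listed and all 7 were called higher (5 to 7 without 1 library), again beside 65.3% of all listed genes. Their median fold was 1.97, close to the 1.91 of all listed genes with a finite ratio. On the median-centred scale 2 of the 7 were called higher and 2 were below 0. Clu, a secreted chaperone gene, was at 1418 ± 204 FPKM in knockout and 207 ± 112 FPKM in control cells, a 6.86-fold rise. Cd44, a hyaluronan receptor gene, was at 7.27 ± 0.55 FPKM in knockout and 2.86 ± 0.67 FPKM in control cells, and Wfdc2, of the whey acidic protein family, at 22.0 ± 3.61 FPKM in knockout and 11.2 ± 4.42 FPKM in control cells (SD, n = 3 each). Of 15 basal genes 5 were listed and all 5 were called higher, with a median fold of 1.997, and on the median-centred scale 1 was called higher and 2 were below 0. Of 20 genes of stratified epithelium 2 were listed, Sprr1a and Serpinb5. Sprr1a, a cornified envelope precursor gene, was at 125 ± 22.1 FPKM in knockout and 12.7 ± 6.13 FPKM in control cells, and Serpinb5, a serpin gene of epithelium, at 4.55 ± 0.43 FPKM in knockout and 2.58 ± 0.29 FPKM in control cells. Both were called higher, with Serpinb5 below 0 on the median-centred scale.

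Markers of other cell types that carry Ly6 proteins moved with the 4 genes. Of 30 leukocyte markers 16 were listed and all 16 were called higher, also with any 1 library left out, with a median fold of 2.32, beside 65.3% called higher among all listed genes. On the median-centred scale 3 of the 16 were called higher and 1 was below 0. Their summed level was 645 to 838 FPKM in the knockout libraries and 224 to 294 FPKM in the control libraries, a ratio of means of 2.65. No listed marker of this list was at 0 in any library. Of 18 fibroblast and smooth muscle markers 5 were listed and all 5 were called higher (4 to 5 without 1 library). Their sum was 148 to 154 FPKM in the knockout libraries and 86.6 to 111 FPKM in the control libraries. On the median-centred scale 0 of the 5 were called higher and 4 were below 0. None of 15 endothelial markers was listed, so they were not analysed here. The folds of Ly6d and Ly6a were above both the ratio of summed leukocyte levels, to which Igkc gave 375 FPKM in knockout and 115 FPKM in control cells, and the median leukocyte fold. That of Ly6e was below both and that of Psca lay between them, and these differences were not tested. The folds of single leukocyte markers ran from 1.91 to 9.77, a range that holds those of Ly6d, Ly6a and Psca. The part of these cells in the levels of the 4 genes was not tested.

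Within groups, the 4 genes did not all order the libraries alike. Control library 3 was the lowest control library and knockout library 3 the highest knockout library for each of the 4 genes. Relative to the control mean on the log2(FPKM + 1) scale, control library 3 was at -0.28 for Ly6a, -0.34 for Ly6d, -0.22 for Ly6e and -0.55 for Psca. It was at -0.17 for the mean of the leukocyte genes and -0.48 for the luminal progenitor-linked genes. The highest control library was library 2 for Ly6a and Ly6e, at 0.27 and 0.20, as it was for 5 of the 6 lists, the interferon (0.19), leukocyte (0.21), luminal progenitor-linked (0.39), stratified epithelium (0.34) and fibroblast and smooth muscle (0.20) lists. For Ly6d and Psca it was library 1, at 0.36 and 0.31, as it was for the basal list, at 0.13. Among the knockout libraries Psca ran from 0.89 to 1.58, Ly6a from 1.55 to 1.99, Ly6d from 1.81 to 2.11 and Ly6e from 0.90 to 0.96. With 3 libraries a group these orders are a description.

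**Figure D4:**
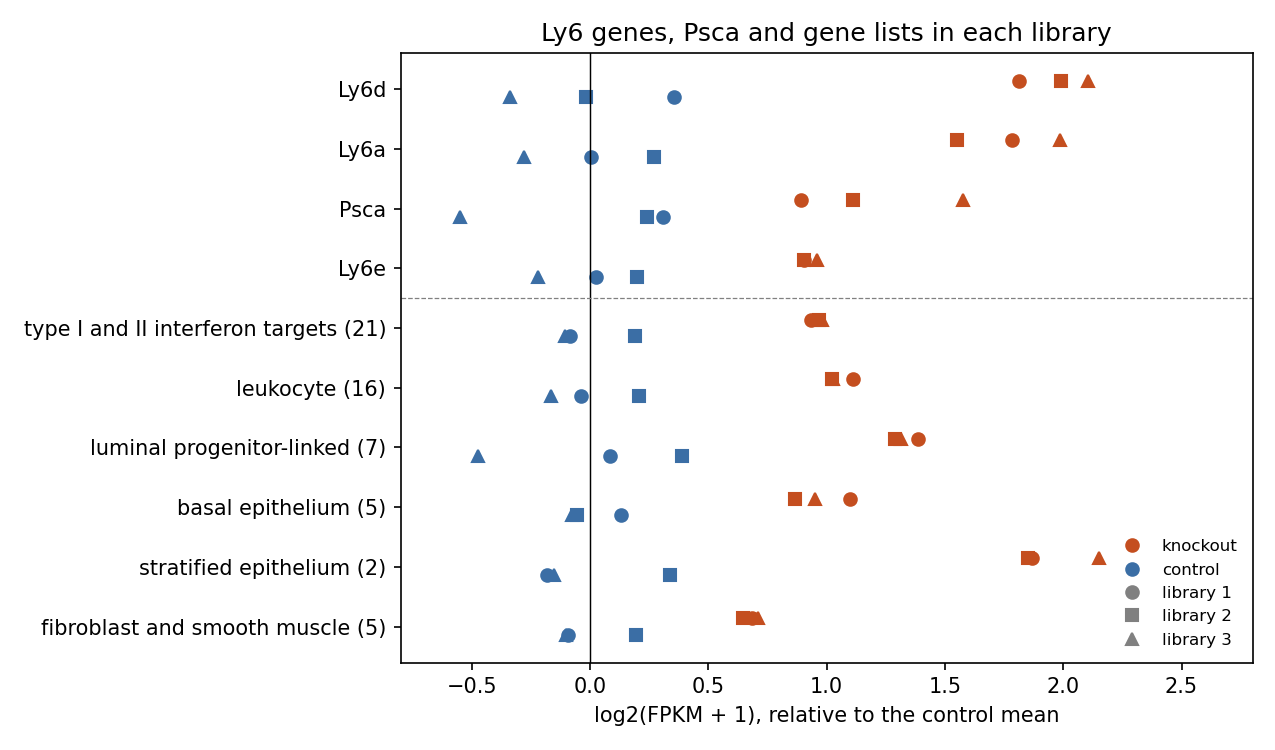
Level on the log2(FPKM + 1) scale of each of the 4 genes and mean level of 6 gene lists (number of listed genes in brackets) in each library, relative to the mean of the control libraries, with knockout libraries drawn above control libraries. Control library 3 is the lowest control library and knockout library 3 the highest knockout library for each of the 4 genes.

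The differences of Ly6d and Ly6a stayed past the threshold in each of 13 alternatives, while those of Psca and Ly6e did not stay past it in all. With p-values adjusted over the 21951 protein-coding genes of the annotation, unlisted ones taken as not changed, Ly6d and Ly6a were called (adjusted p = 0.0446 each by limma). Under that adjustment Ly6e (adjusted p = 0.0799 by limma) and Psca (adjusted p = 0.37 by limma) were not. Scaling bears on the list as a whole: 413 genes were called higher and 46 lower on the deposited scale, so that rises made up 90% of the calls, against 76.6% on a scale centred midway between the smallest rises and the smallest falls (a log2 shift of 0.15) and 30.3% on the scale centred on the median ratio (a log2 shift of 0.93).

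**Figure D5:**
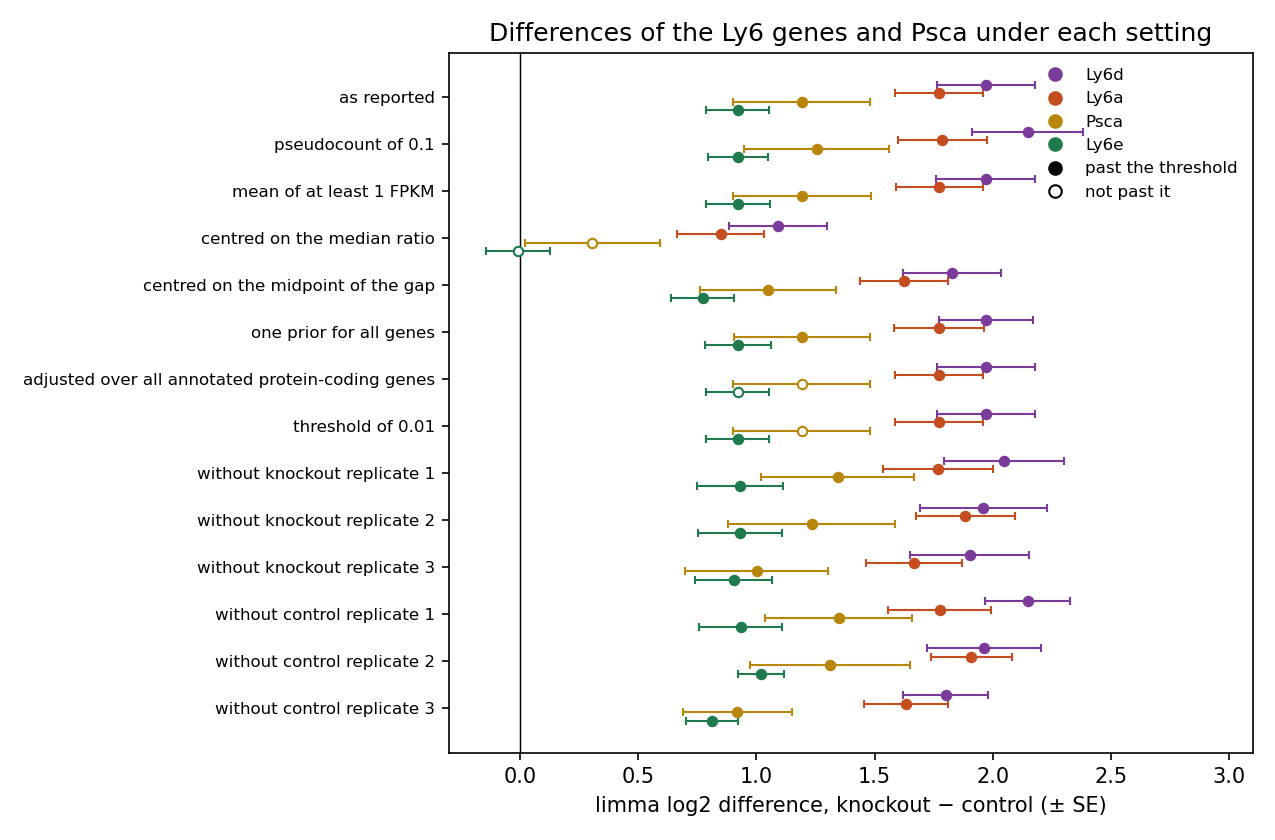
Limma log2 difference, knockout minus control, with its SE, of Ly6d, Ly6a, Psca and Ly6e as reported and under 13 alternatives, where filled points are past the threshold and open points are not. Ly6d lies above 1 throughout, Ly6a falls to 0.85 on the median-centred scale, and on that scale Psca is at 0.31 and Ly6e at -0.01.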

How the data were processed

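Per the submitters' processing notes, TopHat2 2.0.14, Cufflinks 2.2.1, Cuffdiff and build GRCm38 were used, with no role stated. The deposited values were taken as FPKM, normalised by the authors for transcript length and library size, a unit inferred from these tools because the header names none. The labels name both a bulk and a droplet single-cell kit, and which applies was not settled. The sources used here give neither the selection of the 632 genes nor the annotation. FPKM shares a library's total among genes, so large rises lower other values. Depth is unknown and no interval that needs it is given.

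All 632 identifiers matched GENCODE M21 (GRCm38). The test was limma 3.58.1 (R 4.3.3) on log2(FPKM + 1), which understates the change of low genes, with a prior that follows the mean. Its p-values were adjusted by Benjamini-Hochberg over the 632 genes at 0.05. It was tested on simulated data with similar numbers of rises and falls and no selection of genes. The list here differs in both, so that simulation does not vouch for the calls. Folds use group means without a pseudocount. Ratios between genes were compared by exact permutation (scipy 1.17.1). No pair of libraries shared more than 10 identical gene values. Genes and lists were chosen with earlier results of these data known. Named genes are the 4 genes, listed family genes, the 3 most similar patterns for each, listed genes within 1 Mb, and up to 4 called genes of each other list by log2 difference. One gene that this rule would name is counted in its list and not reported here. Promoter motifs were not analysed here. Alternatives were a pseudocount of 0.1, a mean of at least 1 FPKM, both centrings, one prior for all genes, adjustment over 21951 genes, a threshold of 0.01 and leaving out each library.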

Additional observations from a re-analysis of the deposited data

How the results depend on the processing

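No paired analysis was run. The titles of the groups share no replicate numbers, and the sample labels do not give the litter of any library, so a pairing by litter could not be used. The log2 differences of Ly6a and Ly6d kept their direction and stayed past the threshold in all 13 alternatives, that of Ly6e in 11 and that of Psca in 10. Centred on the median ratio, Ly6e was at -0.0082 and Psca at 0.31, so that 2 of the 4 genes were called, and 71 listed genes were called higher and 163 lower; by construction this scale has similar numbers of listed genes on either side of 0. Adjusted over all annotated protein-coding genes, Ly6e (0.92) and Psca (1.19) were not called, leaving 2 of the 4, with 23 listed genes called higher and 1 lower. At a threshold of 0.01 Psca (1.19) was not called and 8 listed genes were called lower, and centred on the midpoint of the gap 119 were called lower. Without 1 library the differences were 1.63 to 1.91 for Ly6a, 1.80 to 2.15 for Ly6d, 0.81 to 1.02 for Ly6e and 0.92 to 1.35 for Psca, all 4 were called in each, and the listed genes called lower numbered 20 (without control replicate 1) to 79 (without control replicate 2), against 46 with all libraries. Depth is unknown, so what it limits could not be stated, and 3 libraries a group limit the precision.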
